A study of Mus musculus with 8 samples.

Results

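The genes described here are 10 regulators of mitochondrial biogenesis and of the copying and transcription of mitochondrial DNA (mtDNA), namely Ppargc1a, Ppargc1b, Pprc1, Nrf1, Esrra, Tfam, Tfb1m, Tfb2m, Polrmt and Polg. They were chosen by name for their roles, without use of their measured values, and are 10 of 36047 genes with an annotated transcript in the deposited data. Their RNA was measured in muscle stem cells (MuSCs), the quiescent Pax7-positive cells that repair skeletal muscle, after a diet free of vitamin A (VA-free) or a control diet. The VA-free diet was a custom feed, and the control diet was normal mouse chow. Any other difference between these feeds cannot be told apart from the lack of vitamin A. All mice were male, carried Pax7CreERT2 and Rosa26 nTnG (Pax7-nTnG mice), and were 5 to 6 months old. They ate their diet for 8 weeks and, on both diets, received 5 daily injections of tamoxifen, after which cells that express the Pax7-driven Cre carry a nuclear GFP (nGFP) in place of nuclear tdTomato. The nGFP-positive cells of the gastrocnemius and quadriceps of 3 VA-free and 2 control mice were sorted 5 days later. The RNA of each mouse had been split into technical replicates A and B, and 8 of these libraries were used. They are named by diet, mouse and split, and their values are given in the order 1B, 2A, 3A, 3B for the VA-free diet and 1A, 1B, 2A, 2B for the control diet.

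PGC-1α, PGC-1β and PRC (genes Ppargc1a, Ppargc1b and Pprc1) form the PGC-1 family of transcriptional coactivators, which bind nuclear receptors and other transcription factors and raise the expression of mitochondrial genes in the nucleus. Among their partners are nuclear respiratory factor 1 (Nrf1) and the estrogen-related receptor ERRα (Esrra), which bind promoters of respiratory chain genes and of the factors that act on mtDNA. TFAM packs mtDNA and bends its promoters, TFB2M opens the promoter for the mitochondrial RNA polymerase POLRMT, TFB1M methylates the small mitochondrial ribosomal RNA, and POLG is the catalytic subunit of the polymerase that replicates mtDNA. Quiescent MuSCs hold few mitochondria, and mitochondrial biogenesis accompanies their activation.

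Start regions of 9 of the 10 genes were matched by symbol in the RefSeq promoter set of GRCm38.p6 (250 bases before and 50 after each start), and Nrf1 had 2 windows there. Upstream is counted from the RefSeq start, and a window can lie within the annotated span of its gene. That of Pprc1 lies inside the span of 46044886 to 46072915. Of the 250 upstream bases, 236 in Tfam, 89 in Polg and 26 in Tfb1m fall in annotated exons of the same gene. The upstream regions of Pprc1 and Ppargc1a are shown first, because they belong to the coactivators with the highest and the lowest fold change of the 10 genes. Capitals mark the core letters of the cAMP response element, TGACGT on either strand, which Ppargc1a held 50 bases before its start and which 7.51% of all 32851 windows held. None of the 5 motifs searched was found in the window of Pprc1.
Pprc1 upstream (chr19:46056289-46056538, plus strand): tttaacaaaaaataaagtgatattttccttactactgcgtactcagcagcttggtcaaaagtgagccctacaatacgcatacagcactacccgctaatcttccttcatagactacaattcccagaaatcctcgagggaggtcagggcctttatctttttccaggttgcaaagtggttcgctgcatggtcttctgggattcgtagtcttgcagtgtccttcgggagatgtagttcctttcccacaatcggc
Ppargc1a upstream (chr5:51567726-51567975, minus strand): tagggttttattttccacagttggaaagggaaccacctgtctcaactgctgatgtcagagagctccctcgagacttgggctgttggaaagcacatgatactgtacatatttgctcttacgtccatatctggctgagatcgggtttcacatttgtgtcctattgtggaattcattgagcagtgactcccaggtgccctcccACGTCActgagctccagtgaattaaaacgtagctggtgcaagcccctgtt

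The windows of 30 bases that follow are shown because they hold the letters bound by NRF1 or by the ETS factor GABPA, the upstream factors of this network, with the match in capitals. The ETS letters CCGGAAGT occurred in 3.89% of all windows and in those of Polg and Tfam, where the matches lie within the annotated span of the gene. The NRF1-like letters GCNTGCGC occurred in 9.95% of all windows and in those of Polrmt, Tfb2m and Esrra, and the matches in Polrmt and Esrra partly overlapped one another. Positions are counted with the start base as 0. The ERR element TCAAGGTCA (0.423% of all windows) and the direct repeat DR5 of the retinoic acid receptors (0.00913%) were found in 0 of the 10 member windows. A match is a run of letters only, and the letters were chosen with the sequences in view.
Polg, match at -38 (chr7:79466293-79466322, minus strand): gaggacctcacCCGGAAGTccctctgcacc
Tfam, match at -47 (chr10:71238073-71238102, minus strand): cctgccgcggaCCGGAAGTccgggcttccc
Polrmt, match at -133 (chr10:79746696-79746725, minus strand): agagtatttctGCGCATGCtctcttgccgc
Tfb2m, match at 13 (chr1:179546245-179546274, minus strand): ctaggtcgttcGCATGCGCcattcgtaatg
Esrra, match at -34 (chr19:6921824-6921853, minus strand): ccccctgttttGCATGCGCaggccggcccc

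The 8 libraries held between 44831232 and 88650428 estimated counts. Counts were added per gene and per mouse, and the diets were compared over the 5 mice with edgeR's quasi-likelihood fit over all tested genes, whose p-values were adjusted after Benjamini and Hochberg. Levels are CPM, the counts of a gene relative to the TMM-normalized total of the library, and a positive log2 fold change means a higher level on the VA-free diet, given with its standard error (SE). Control 2A stood apart from its technical replicate 2B, with which it shares an animal, and several results are therefore given without it as well. Of 12 MuSC markers, 10 were higher on the VA-free diet, and they summed to between 7378 and 8549 CPM per VA-free library and between 3664 and 5228 CPM per control library. Markers of several other cell types were higher in the control libraries, with 12 of 12 endothelial markers lower on the VA-free diet (281 to 395 against 1419 to 3706 CPM summed), 10 of 10 Schwann cell markers (488 to 518 against 1096 to 1446 CPM) and 7 of 8 tenocyte markers (45.8 to 74.7 against 684 to 1214 CPM). Of 12 markers of myofibers, cells rich in mitochondria, 7 were lower, and they summed to between 348 and 446 CPM against 525 to 648 CPM. No marker of these lists was at 0 throughout a diet. The part of these markers in the differences below was not tested, and in sorted bulk RNA fewer cells of a type and less RNA per cell cannot be told apart.

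Of the 10 regulators, 3 passed the threshold of an adjusted p under 0.05, all 3 of them higher on the VA-free diet, and 7 did not pass. The 3 were Pprc1, Ppargc1b and Polg. Among all 17997 tested genes 41.4% passed, 18.9% being higher and 22.5% lower. Counted in either direction, 3 of 10 is thus no larger a share than that of all genes. By direction, 3 of 10 were higher beside 18.9% of all genes, and 0 were lower beside 22.5%. The difference in shares was not tested. For the same 3 regulators no VA-free library overlapped with a control library, which held for 41.3% of all genes. Over all 10 regulators the median log2 fold change was 0.42, with 7 values above 0 and 3 below, and the median of all tested genes was 0.00. Leaving out control 2A gave a count of 3, and leaving out control 2B gave 2, since Polg then did not pass. Each of the 10 passed the filter on low counts, and their counts per library ranged from 81 (Esrra in control 2A) to 17663 (Pprc1 in VA-free 1B).

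**Figure D1:**
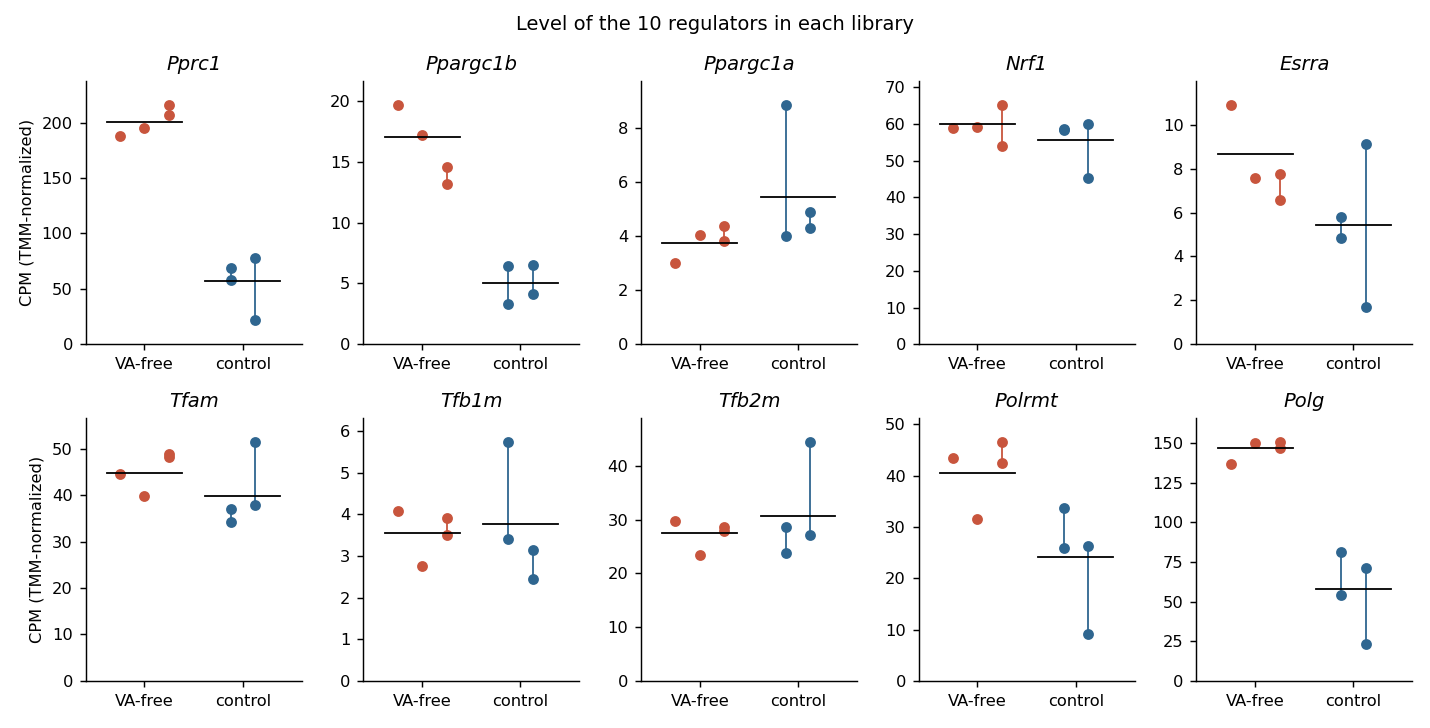
Level of each regulator in every library, in TMM-normalized CPM on axes that start at 0. Points are libraries, vertical lines join technical replicates of 1 mouse, columns of points are mice, and black bars are the means over mice. Pprc1, Ppargc1b and Polg do not overlap between the diets, and control 2A and 2B lie far apart for Pprc1, Esrra, Polrmt and Polg.

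Of the 3 PGC-1 family coactivators, Pprc1 and Ppargc1b were higher on the VA-free diet and Ppargc1a did not pass. Pprc1 encodes PRC, the family member known as a serum- and growth-responsive coactivator (chromosome 19 of GRCm38, 46044886 to 46072915). Its level was 188, 195, 207 and 216 CPM in the VA-free libraries and 58.3, 68.8, 21.5 and 77.7 CPM in the control libraries. The lowest VA-free library was above the highest control library. Over mice it was at 201 ± 11.7 CPM (SD, n = 3) on VA-free and 57.4 ± 11.2 CPM (SD, n = 2) on control diet, a log2 fold change of 1.81 (SE 0.16, 95% interval 1.44 to 2.18, edgeR adjusted p = 0.000391), which was above that of 97.2% of the tested genes. Without control library 2A, its lowest value, the log2 fold change was 1.49 (edgeR adjusted p = 0.000369).

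Ppargc1b encodes PGC-1β, a coactivator of ERRα and of lipid and mitochondrial genes, on chromosome 18. It was at 19.7, 17.2, 13.2 and 14.6 CPM in the VA-free libraries and at 3.33, 6.42, 4.12 and 6.55 CPM in the control libraries. All VA-free libraries were above all control libraries, and control 2A was not the lowest of them. The means were 17.1 ± 3.03 CPM (SD, n = 3) on VA-free and 5.08 ± 0.203 CPM (SD, n = 2) on control diet, with a log2 fold change of 1.75 (SE 0.21, 95% interval 1.25 to 2.26, edgeR adjusted p = 0.00105). The control SD was small because the technical replicates of each control mouse, which differed, were added.

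Ppargc1a, which encodes PGC-1α, the family member induced by cold, fasting and exercise (chromosome 5, 51454250 to 51567726), did not pass. It was at 3.02, 4.06, 4.36 and 3.82 CPM in the VA-free libraries and at 4.01, 8.86, 4.91 and 4.29 CPM in the control libraries. The libraries overlapped, and control 1B was far above its technical replicate 1A. The means were 3.76 ± 0.587 CPM (SD, n = 3) on VA-free and 5.46 ± 1.45 CPM (SD, n = 2) on control diet, and the log2 fold change of -0.54 (SE 0.28, edgeR adjusted p = 0.173) had a 95% interval of -1.21 to 0.13. Without control library 1B the value was -0.17, and the gene rested on 190 to 391 counts per library.

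The 2 transcription factors of the set did not pass the threshold. Nrf1 (chromosome 6, 30047988 to 30153458) was at 58.9, 59.2, 53.9 and 65.2 CPM in the VA-free libraries and at 58.7, 58.3, 60.1 and 45.4 CPM in the control libraries. Control 2B was the lowest and the other 7 libraries lay between 53.9 and 65.2 CPM. The log2 fold change was 0.11 (SE 0.12, 95% interval -0.17 to 0.40, edgeR adjusted p = 0.502), and any change within that interval is compatible with these data. Its sign was opposite without control mouse 2 (-0.02).

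Esrra, the gene of ERRα (chromosome 19, 6910977 to 6921813), was at 10.9, 7.57, 7.75 and 6.58 CPM in the VA-free libraries. In the control libraries it was at 4.84, 5.78, 1.69 and 9.13 CPM, so that of the technical replicates of control mouse 2 one was the lowest of all 8 libraries and the other was above 3 of the 4 VA-free libraries. The means were 8.67 ± 2.19 CPM (SD, n = 3) on VA-free and 5.45 ± 0.0147 CPM (SD, n = 2) on control diet, where the control SD was small because the values of 2A and 2B were added. The log2 fold change of 0.67 (SE 0.26, 95% interval 0.06 to 1.28) did not pass (edgeR adjusted p = 0.0772). Without control library 2A it was 0.25, and 1.29 without 2B.

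Among the factors of mitochondrial transcription, Tfam had the highest TPM on both diets (chromosome 10, 71225464 to 71238280). It was at 44.5, 39.8, 48.8 and 48.2 CPM in the VA-free libraries and at 37.0, 34.1, 51.5 and 37.9 CPM in the control libraries. Control 2A was the highest library of all, and the diets overlapped. The means were 44.8 ± 4.65 CPM (SD, n = 3) on VA-free and 39.9 ± 4.16 CPM (SD, n = 2) on control diet, with a log2 fold change of 0.17 (SE 0.14, 95% interval -0.17 to 0.50, edgeR adjusted p = 0.385).

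Tfb2m, which encodes the promoter-opening factor (chromosome 1, 179528055 to 179546267), was at 29.7, 23.5, 27.8 and 28.7 CPM in the VA-free libraries and at 28.6, 23.8, 44.5 and 27.1 CPM in the control libraries. Apart from control 2A the libraries of both diets lay between 23.5 and 29.7 CPM. The log2 fold change was -0.16 (SE 0.17, 95% interval -0.56 to 0.25, edgeR adjusted p = 0.504) and 0.02 without control library 2A. Tfb1m, the gene of the ribosomal RNA methyltransferase (chromosome 17, 3519256 to 3557781), was at 4.09, 2.76, 3.92 and 3.50 CPM in the VA-free libraries and at 5.75, 3.42, 2.46 and 3.14 CPM in the control libraries. It rested on 118 to 383 counts per library. Its log2 fold change of -0.08 (SE 0.35, edgeR adjusted p = 0.883) had a 95% interval of -0.90 to 0.75, so changes of either direction are compatible with these data. The sign of both genes turned with TPM in place of counts (0.09 for Tfb2m and 0.28 for Tfb1m).

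Polrmt, the mitochondrial RNA polymerase (chromosome 10, 79736123 to 79746581), was at 43.4, 31.5, 42.4 and 46.6 CPM in the VA-free libraries and at 25.9, 33.7, 9.18 and 26.3 CPM in the control libraries. VA-free 2A lay below control 1B, and the other VA-free libraries lay above all controls. The means were 40.4 ± 7.65 CPM (SD, n = 3) on VA-free and 24.1 ± 9.18 CPM (SD, n = 2) on control diet, and the log2 fold change was 0.75 (SE 0.27, 95% interval 0.10 to 1.39, edgeR adjusted p = 0.0655). The gene passed without VA-free mouse 2 (0.90), without control library 1B (0.89) and without control mouse 1 (1.20), and it was at 0.50 without control library 2A (edgeR adjusted p = 0.0676). It also passed without the filter on low counts (0.72), under DESeq2 (0.73) and limma-voom (0.82), and with the replicate number as a block (0.69). Polrmt passed in 9 of 26 alternatives and did not in 17. Among the latter it was at 0.67 and 0.65 without VA-free mouse 1 or 3, and at 1.04 without control library 2B. Removal of the length trend gave 0.35, and leaving out control mouse 2 gave 0.40.

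Polg, the mtDNA polymerase (chromosome 7, 79446231 to 79466362), was at 137, 150, 147 and 151 CPM in the VA-free libraries and at 54.1, 81.4, 23.1 and 71.0 CPM in the control libraries. The VA-free libraries lay close together and all above the controls. The means were 147 ± 5.97 CPM (SD, n = 3) on VA-free and 58.0 ± 15.8 CPM (SD, n = 2) on control diet, a log2 fold change of 1.34 (SE 0.18, 95% interval 0.92 to 1.77, edgeR adjusted p = 0.00149). It was 1.07 and passed in the absence of control library 2A, and without 2B it was 1.69 and did not pass (edgeR adjusted p = 0.0594). The libraries do not mark strand, and 8.57% of the exon bases of Polg overlap exons of Fanci on the opposite strand, to which 2326 counts were assigned over all libraries against 46654 for Polg. The overlaps of Pprc1 with Ldb1 (2.82%), of Tfb1m with Tiam2 (3.93%) and of Esrra with Trmt112 (1.66%) were smaller, although Trmt112 had 18885 counts against 3202 for Esrra.

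**Figure D2:**
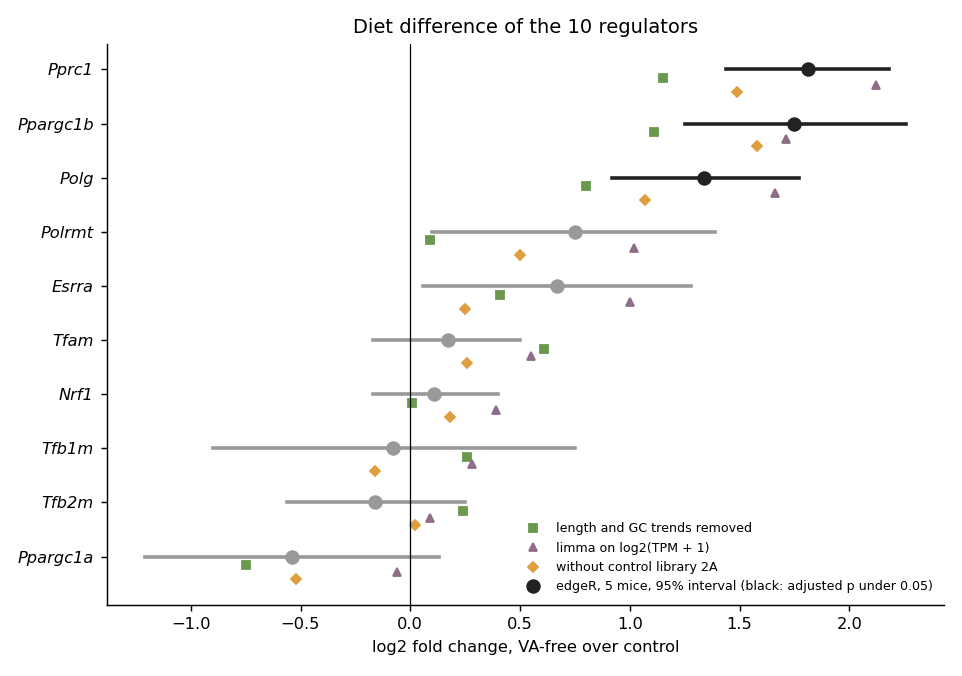
Log2 fold change, VA-free over control, of each regulator. Circles with lines are the edgeR values over 5 mice with their 95% intervals, black where the adjusted p was under 0.05, and small symbols are the same value after removal of the trends with transcript length and GC content, with log2(TPM + 1), and without control library 2A. Pprc1, Ppargc1b, Polg, Polrmt, Esrra, Tfam and Nrf1 lie to the right of 0 in each, although Nrf1 (0.01) and Polrmt (0.09) lie near 0 after removal of the trends. Ppargc1a lies to the left in each, whereas Tfb1m and Tfb2m change sign.

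The technical replicates show how much of the spread arose within an animal. In VA-free mouse 3 the log2 ratio of 3B to 3A lay between -0.24 (Esrra) and 0.28 (Nrf1) for the 10 genes. In control mouse 2 the ratio of 2B to 2A was 2.44 for Esrra, 1.86 for Pprc1, 1.62 for Polg and 1.52 for Polrmt, and -0.71 for Tfb2m and -0.44 for Tfam. In control mouse 1 it was largest for Ppargc1a (1.15) and Ppargc1b (0.94), as 1B over 1A. In sum library 2A also held less of the MuSC markers than 2B (3664 against 5228 CPM), with Itga7, a surface integrin of MuSCs, at 55.7 against 483 CPM. The MuSC markers did not all go that way. Myf5 (91.4 against 75.4 CPM), Calcr (163 against 109), Cd34 (754 against 535) and Chodl (984 against 801) were higher in 2A, and the others were lower. Endothelial markers summed to 1419 CPM in 2A and 2399 CPM in 2B. The part of these differences in the values of 2A was not tested.

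Of 88 annotated transcripts of the 10 genes, 66 passed the filter in a transcript-level fit, and 5 of them were higher on the VA-free diet at an adjusted p under 0.05, against 12.5% of all transcripts tested in either direction. In edgeR 0 were lower, 1 had an unadjusted p under 0.05 in that direction, and DESeq2 called 14 higher and 1 lower. The count was 2 without VA-free mouse 1, 2 or 3. Pprc1 was carried by 2 protein-coding transcripts that both passed, although Pprc1-203 did not when any 1 VA-free mouse was left out (edgeR adjusted p = 0.0534, 0.0504 and 0.0585) and neither did with the replicate number as a block. Pprc1-203 (5246 bases) was at 102, 95.4, 106 and 120 CPM in the VA-free libraries and at 37.4, 39.3, 11.4 and 34.5 CPM in the control libraries, and Pprc1-201 (5205 bases) at 71.5, 76.7, 77.3 and 72.5 CPM and at 18.2, 27.7, 8.26 and 34.6 CPM. Pprc1-203 held 51.0% to 57.4% of the gene's counts on the VA-free diet and 41.9% to 62.1% on the control diet, so the shares overlapped.

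Polg was spread over more transcripts, and the largest share fell on forms that are not annotated as coding. Polg-203, a retained-intron transcript of 4589 bases, held 34.9% to 44.4% of the gene's counts in the VA-free libraries. In the control libraries it held 48.5%, 54.3% and 49.9% in 1A, 1B and 2B and was at 0 in 2A. Polg-213, annotated as a target of nonsense-mediated decay, held 24.6% to 34.5% and 16.2% to 22.5%, without overlap between the diets. Its log2 fold change was 1.82 (SE 0.23, edgeR adjusted p = 0.0105), and it did not pass without control mouse 2 (edgeR adjusted p = 0.0513). The protein-coding Polg-201 (7837 bases) was at 22.7, 20.1, 16.8 and 17.8 CPM in the VA-free libraries and at 7.19, 3.80, 8.89 and 9.01 CPM in the control libraries, a log2 fold change of 1.42 (SE 0.26, edgeR adjusted p = 0.0258). It did not pass when any 1 VA-free mouse or control mouse 1 was left out, although its value stayed between 1.13 and 1.75 over all alternatives. These transcripts share exons, so how their counts were divided is an estimate.

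For the other coactivators the division between transcripts varied more. The 2 coding transcripts Ppargc1b-202 and Ppargc1b-201 took 53.8% to 72.7% and 27.2% to 45.4% of the gene's counts on the VA-free diet. On the control diet Ppargc1b-202 took 19.6% and 27.2% in 1A and 1B and 89.6% and 74.7% in 2A and 2B. The control mice thus differed in the form to which the counts were assigned, and neither transcript passed by itself although the gene did. Ppargc1a-204, annotated as a target of nonsense-mediated decay, took 40.2% to 60.4% of the Ppargc1a counts except in VA-free 1B, where it took 4.75%. Tfam was carried by the coding Tfam-201 at 68.8% to 72.4% in VA-free and 64.6% to 68.8% in control libraries.

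CPM does not allow levels to be compared between genes of different length, so the order of the 10 genes was read from the deposited TPM (kallisto's level per transcript length at a fixed total per library), as means over mice. On the VA-free diet the order from the highest level was Pprc1 at 85.7 ± 4.06 TPM, Polg at 79.0 ± 3.05, Tfam at 58.0 ± 8.63, Nrf1 at 50.2 ± 3.71, Tfb2m at 32.3 ± 6.63, Polrmt at 22.6 ± 5.02, Ppargc1b at 9.34 ± 1.84, Esrra at 9.16 ± 2.40, Tfb1m at 4.49 ± 1.03 and Ppargc1a at 2.73 ± 1.04 TPM (SD, n = 3). Mice overlapped between the neighbours Pprc1 and Polg, Tfam and Nrf1, Ppargc1b and Esrra, and Tfb1m and Ppargc1a. On the control diet Tfam was first at 39.3 ± 6.87 TPM and Nrf1 next at 38.0 ± 1.92 TPM (SD, n = 2). Tfb2m at 30.1 ± 5.79, Polg at 25.0 ± 8.84 and Pprc1 at 18.9 ± 0.981 TPM (SD, n = 2) followed, and Ppargc1b was last at 2.12 ± 0.0893 TPM (SD, n = 2). Polrmt at 10.6 ± 2.73, Esrra at 4 ± 0.382, Tfb1m at 3.57 ± 1.39 and Ppargc1a at 2.84 ± 0.868 TPM (SD, n = 2) lay in between. These SDs are between mice and leave out the spread of technical replicates, which for Pprc1 was 7.5 TPM in 2A and 28.9 TPM in 2B. The neighbours that overlapped on the control diet were Tfam and Nrf1, Tfb2m and Polg, Polg and Pprc1, Esrra and Tfb1m, and Tfb1m and Ppargc1a. Ppargc1a and Ppargc1b were nearly tied, with the lowest mouse of Ppargc1a at 2.23 TPM and the highest of Ppargc1b at 2.18 TPM. In control library 2B Ppargc1b (2.74 TPM) was above Ppargc1a (2.26 TPM). The 10 genes summed to 354 ± 23.4 TPM (SD, n = 3) on VA-free and 175 ± 3.78 TPM (SD, n = 2) on control diet.

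**Figure D3:**
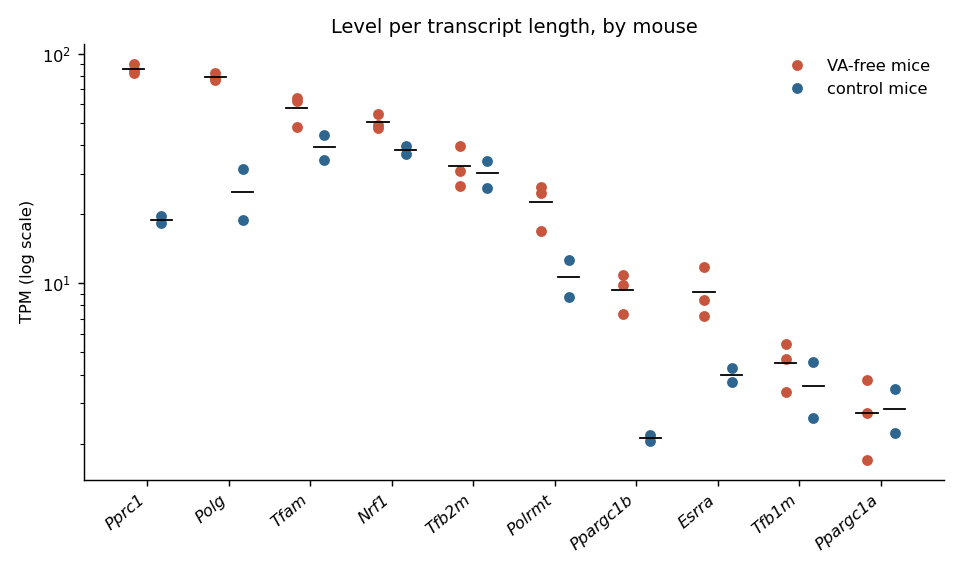
Level of each regulator in TPM on a log scale, by mouse. Points are mice, the mean of its libraries where a mouse has 2, bars are means over mice, and genes are ordered by their level on the VA-free diet. Pprc1 is the highest on the VA-free diet and below Tfam, Nrf1, Tfb2m and Polg on the control diet. Ppargc1b is the lowest on the control diet only, where it is nearly tied with Ppargc1a.

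Ratios of TPM within a library do not depend on the scaling between libraries. PGC-1β RNA exceeded PGC-1α RNA in the VA-free mice, with a ratio of Ppargc1b to Ppargc1a of 6.43, 2.59 and 2.69, and the control mice were at 0.632 and 0.924. Pprc1 over Ppargc1a was 50, 21.7 and 33.2 in the VA-free mice and 5.66 and 8.16 in the control mice. Polg over Tfam was 1.23, 1.71 and 1.23 against 0.907 and 0.424. Control libraries 2A and 2B lay apart in these ratios. Ppargc1b over Ppargc1a was 0.625 in 2A and 1.21 in 2B, so PGC-1β RNA exceeded PGC-1α RNA in 2B as well. Pprc1 over Ppargc1a was 3.42 in 2A and 12.8 in 2B, and Polg over Tfam was 0.202 and 0.723. In each of these 3 ratios every VA-free mouse was above every control mouse, and the mean log2 ratio differed by 2.22, 2.28 and 1.15. The exact permutation test over the 10 splits of 5 mice gave p = 0.1, two-sided, which is the smallest value it can give (adjusted p = 0.167 over 5 ratios). Polg over Polrmt was 3.16, 4.89 and 2.92 against 2.49 and 2.16, also without overlap of the mice, and differed by 0.62 (exact permutation p = 0.2, adjusted p = 0.25). For Tfb1m over Tfb2m the mice overlapped, and the difference was 0.26 (exact permutation p = 0.8, adjusted p = 0.8). The 5 ratios were picked with earlier values known.

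Over all genes the fold change increased with transcript length, and the regulators differ in length. The median log2 fold change was -0.69, -0.33, 0.03, 0.30 and 0.56 in 5 equal bins of the tested genes from the shortest to the longest transcripts. Pprc1 lay in the longest bin, Ppargc1a, Ppargc1b, Polrmt and Polg in the next, Nrf1 and Esrra in the middle one, and Tfam, Tfb1m and Tfb2m in the second shortest. After the length trend of each mouse was removed, Pprc1 was at 1.25, Ppargc1b at 1.32 and Polg at 0.91, and all 3 passed, as did Tfam at 0.46 (edgeR adjusted p = 0.0437). With the trend of GC content removed as well, a choice made after the data were seen, Pprc1 was at 1.15, Ppargc1b at 1.11, Polg at 0.80 and Tfam at 0.61. All 4 passed, whereas Polrmt was at 0.09. With TPM in place of counts, which moved the median of all genes from 0.00 to 0.19, 7 of the 10 passed, with Polrmt at 1.02, Esrra at 1.00, Tfam at 0.55 and Nrf1 at 0.39 besides the 3 genes. On that scale 68.7% of the calls over all genes were higher on the VA-free diet, against 45.6% on counts.

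**Figure D4:**
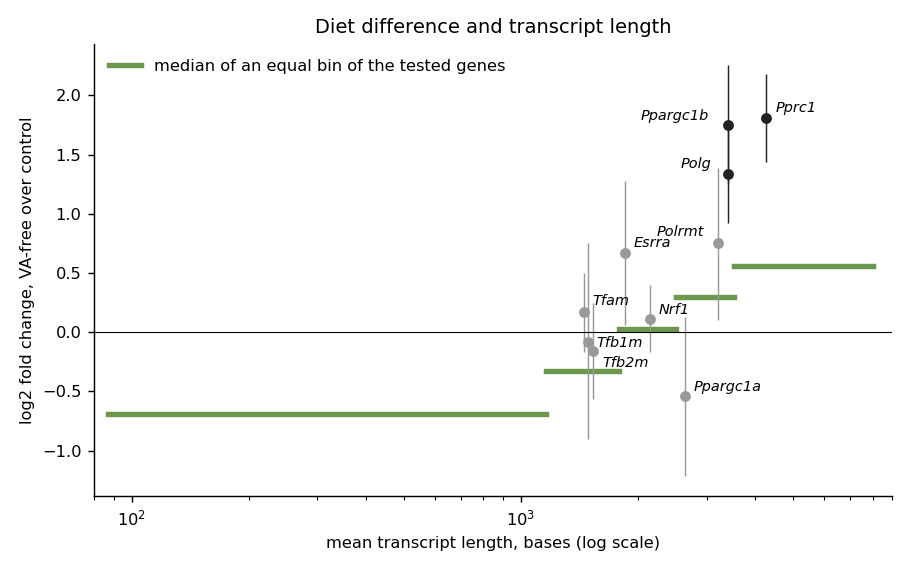
Log2 fold change, VA-free over control, against the mean transcript length in bases on a log scale. Points are the regulators with 95% intervals, black where the adjusted p was under 0.05, and green lines are the medians of 5 equal bins of the tested genes by length, the last of which goes on beyond the axis. The medians climb from -0.69 to 0.56. All regulators except Ppargc1a lie above the line of their length, Nrf1 only narrowly (0.11 against 0.03), and Ppargc1a lies below.

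The genes that surround the regulators were taken from 6 lists. In the list of partners and upstream regulators of the coactivators, 43 of 44 genes were tested (Esrrb was not), 18 were higher, 5 were lower and 20 did not pass, with a median log2 fold change of 0.47. Beside the counts of each list stand the shares of all tested genes given above, 18.9% higher and 22.5% lower (41.4% together), and the median of 0.00. Hcfc1, a host cell factor that binds PGC-1 proteins, was at 156 ± 9.14 CPM (SD, n = 3) on VA-free and 45.6 ± 1.77 CPM (SD, n = 2) on control diet, a log2 fold change of 1.77 (SE 0.12). Mtor, the growth kinase, had 1.58 (SE 0.15). Gabpa, the ETS factor named above, had 0.73 (SE 0.12) and Sirt1, a deacetylase of PGC-1α, 0.61 (SE 0.17). Among the 5 that were lower, Pparg, the adipogenic nuclear receptor, had -2.50 (SE 0.24) and Mef2c, a factor of muscle and endothelial cells, had -2.29 (SE 0.21), and Sirt3, the mitochondrial deacetylase, which passed in 9 of 26 alternatives, had -0.65 (SE 0.21). The number that passed was 9, 7 higher and 2 lower, without control library 2B, and 12, 8 higher and 4 lower, after removal of the length trend.

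Of 21 genes whose proteins replicate mtDNA and hold its nucleoids, 5 were higher, 5 lower and 11 did not pass, with a median of -0.04, and these counts are near the shares of all genes (18.9% higher and 22.5% lower). Twnk, the mtDNA helicase that works ahead of POLG, was at 19.4 ± 0.901 CPM (SD, n = 3) on VA-free and 10.6 ± 3.59 CPM (SD, n = 2) on control diet, a log2 fold change of 0.88 (SE 0.23). Lig3, the ligase of mtDNA, had 1.08 (SE 0.14) and Atad3a, a nucleoid-associated ATPase, 0.64 (SE 0.11). Ssbp1, the single-strand binding protein that completes the replication fork, was lower, at 29.2 ± 1.99 CPM (SD, n = 3) on VA-free and 60.3 ± 12.9 CPM (SD, n = 2) on control diet, a log2 fold change of -1.05 (SE 0.16). Endog, a mitochondrial nuclease, had -1.07 (SE 0.20) and Hspe1, a mitochondrial chaperonin, -0.85 (SE 0.12). Polg2, the accessory subunit of POLG, was at 12.1 and 12.6 CPM and did not pass (log2 fold change -0.05, SE 0.16). Of 12 genes of mitochondrial nucleotide supply, 1 was higher (Slc25a36, a pyrimidine nucleotide carrier, 1.02, SE 0.16) and 4 were lower, among them Cmpk2, a mitochondrial nucleotide kinase (-0.90, SE 0.14), Dguok, a deoxyguanosine kinase (-0.84, SE 0.13), and Mpv17 (-0.77, SE 0.12), with a median of -0.41. With the length trend removed, 3 of the 21 and 2 of the 12 passed. Twnk (0.45), Ssbp1 (-0.44), Endog (-0.51), Hspe1 (-0.13), Dguok (-0.29) and Mpv17 (-0.32) were among those that then did not. Twnk passed in 19 of 26 alternatives and the other named genes that passed in at least 21.

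Of 33 further genes of mitochondrial transcription and RNA processing, 9 were higher, 7 lower and 17 did not pass, with a median of 0.06, against 41.4% of all genes called in either direction. Dhx30, an RNA helicase of mitochondrial RNA granules, had a log2 fold change of 1.03 (SE 0.13), and Fastkd1 (0.85, SE 0.27) and Fastkd5 (0.71, SE 0.22), which act on mitochondrial RNA stability and processing, were also higher. Slirp, the partner of LRPPRC that stabilizes mitochondrial mRNAs, was at 16.2 ± 0.755 CPM (SD, n = 3) on VA-free and 52.4 ± 0.683 CPM (SD, n = 2) on control diet, a log2 fold change of -1.69 (SE 0.12), while Lrpprc itself was higher (0.70, SE 0.12). Hsd17b10, a subunit of mitochondrial RNase P, had -1.16 (SE 0.13) and Rexo2, an exonuclease of short RNAs, -1.06 (SE 0.12). Tefm, the elongation factor of POLRMT, had -0.84 (SE 0.20). The number that passed, 16, fell to between 8 and 9 when 1 VA-free mouse was left out, to 6 without control library 2B and to 7 after removal of the length trend. Fastkd1 passed in 17 and Fastkd5 in 13 of 26 alternatives. Besides those named by rule, Polg2, Lrpprc, Tefm, Gabpa and Sirt1 were picked after their values were seen.

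The nuclear genes that NRF1, ERR and the PGC-1 coactivators are known to activate followed in the lists. Of 34 such targets, 5 were higher, 17 lower and 12 did not pass, with a median of -0.57, where 18.9% of all genes were higher and 22.5% lower. Cox17, a copper chaperone of cytochrome c oxidase, was at 11 ± 0.864 CPM (SD, n = 3) on VA-free and 36.1 ± 1.57 CPM (SD, n = 2) on control diet, a log2 fold change of -1.72 (SE 0.14). The cytochrome c oxidase subunits Cox7a2 (-1.54, SE 0.12) and Cox6a1 (-1.48, SE 0.14) were lower as well. Higher were Pdk4, a kinase that restrains pyruvate oxidation (1.19, SE 0.16), Vdac1, an outer membrane channel (0.96, SE 0.17), and Cs, citrate synthase (0.76, SE 0.12). After removal of the length trend, 13 of the 34 passed, 3 higher and 10 lower.

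The 13 mRNAs that POLRMT, TFAM and TFB2M transcribe from mtDNA were all lower on the VA-free diet (22.5% of all genes were), with a median log2 fold change of -2.56. Their summed level was 8047, 5845, 7811 and 7281 CPM in the VA-free libraries and 37184, 43367, 51600 and 47399 CPM in the control libraries. The diets were far apart, at 7240 ± 1234 CPM (SD, n = 3) on VA-free and 44589 ± 4433 CPM (SD, n = 2) on control diet. The lowest values were those of mt-Nd6 at -3.24 (SE 0.17), mt-Nd2 at -3.18 (SE 0.18) and mt-Nd4 at -3.15 (SE 0.16), all subunits of respiratory complex I. All 13 were called lower in every one of the 26 alternatives. In the comparison over mice the RNA of the polymerase Polrmt and of Tfam and Tfb2m did not pass, although Polrmt and Tfam were higher in the alternatives named above.

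**Figure D5:**
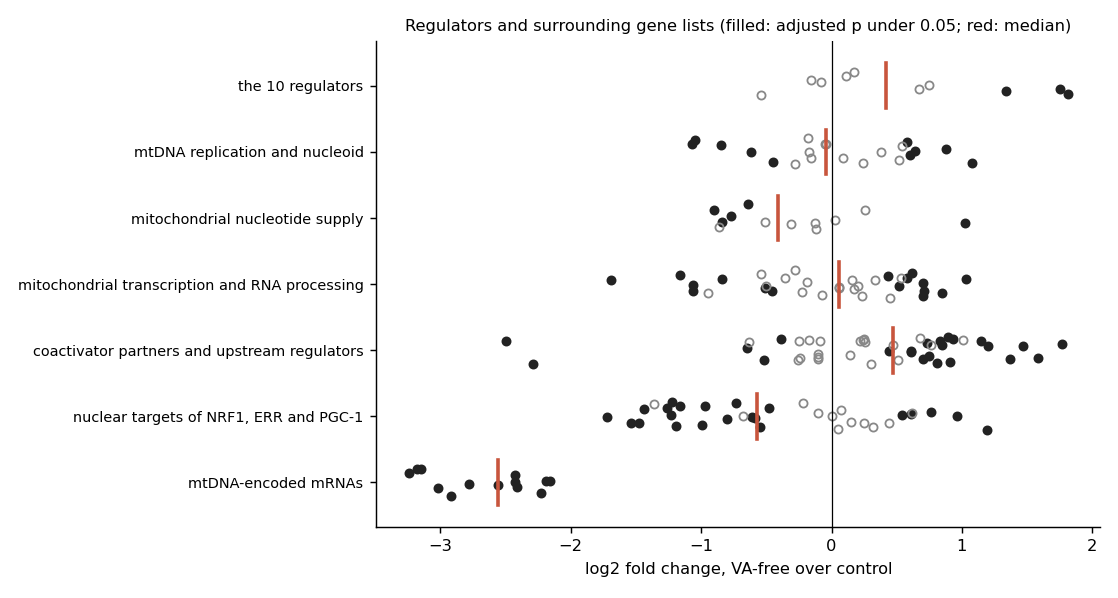
Log2 fold change, VA-free over control, of the 10 regulators and of the genes of the 6 lists around them. Each point is a tested gene, filled where the adjusted p was under 0.05, red lines are list medians, and the vertical scatter has no meaning. The mtDNA-encoded mRNAs lie between -3.24 and -2.16, apart from all 10 regulators, and the nuclear targets have a median of -0.57.

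The patterns most like those of Ppargc1a and Tfam over the 8 libraries were sought by the root mean square (RMS) difference of centred log2(CPM + 1), among 11045 and 11044 genes. Nearest to Ppargc1a were Smyd4 (0.141), Rad9a (0.153) and Inafm1 (0.155), which had their highest level in control 1B as Ppargc1a did. Nearest to Tfam were Rras2 (0.0539), Eif1ax (0.0627) and Clk3 (0.0639), which were highest in control 2A. Among the members themselves, the closest were Tfam and Tfb2m (0.189), Nrf1 and Tfam (0.203) and Pprc1 and Polg (0.269).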

How the data were processed

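RNA of sorted MuSCs from 3 VA-free and 2 control mice was made into cDNA with SMART-Seq v4 and into Nextera XT libraries, which do not mark strand, and read as 75 bp single ends. The authors' notes name FastQC and kallisto 0.46.2, and they deposited estimated counts and TPM for 118489 GRCm38 transcripts per library. The deposited estimated counts carry no normalization, and the deposited TPM are scaled by effective transcript length. The study's own comparison used tximport and DESeq2.

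Estimated counts of the 116816 transcripts with a gene in Ensembl 96 were added per gene and per mouse and rounded, and 0.647% to 0.756% of a library's counts stayed out. Totals were 44831232 to 88650428 per library. The diet test was edgeR's quasi-likelihood F test (edgeR 4.0.16, R 4.3.3) after TMM scaling and filterByExpr, with Benjamini-Hochberg adjusted p-values over 17997 genes and a threshold of 0.05, and transcripts were treated likewise. The SE is the log2 fold change divided by the square root of F. The labels do not say that the mice come from separate litters or days, and with 2 control mice their spread rests on 1 difference. In 26 alternatives the scaling, the filter or the tool (DESeq2 1.42.0, limma 3.58.1) was exchanged, libraries were kept apart or 1 taken per mouse, trends with length and GC content were removed, TPM with 1 or 0.1 added were tested, the replicate number was a block, or a mouse or technical library was left out. The scripts were tested on simulated data. Named are all members, for each list up to 3 genes per direction with the largest fold change among those called at 5 CPM or more on average, and the 3 genes nearest to Ppargc1a and Tfam, and 1 result under this rule is not reported here. The members, lists, markers and tests were chosen with earlier results of these data known. Further marker lists were read, with their summed CPM per library on the VA-free and the control diet. Fibro-adipogenic markers were at 16790 to 19086 and 8851 to 15119 CPM (1 of 10 higher, 6 lower), pericyte and smooth muscle markers at 1732 to 2020 and 2758 to 3370 (1 of 10 higher, 6 lower), macrophage markers at 28.2 to 168 and 194 to 969 (4 of 12 lower), erythroid markers at 28.8 to 243 and 1302 to 1909 (4 of 5 lower), and dissociation and immediate early genes at 28937 to 31429 and 23971 to 33558 (2 of 10 higher, 2 lower).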

Additional observations from a re-analysis of the deposited data

Results flagged for a closer look

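Of the 20 sets of 4 libraries, 10 genes on each diet, 1 held a library far from the others. Chance alone would give about 1 in 20 if the libraries and genes were independent. They are not, since technical replicates share a mouse and the genes share libraries, so that rate is only a rough guide. For Nrf1 on the control diet, control 2B was the lowest at 45.4 CPM, while control 1A, 1B and 2A were at 58.7, 58.3 and 60.1 CPM. Control 2A is the technical replicate of 2B, so the distance arose within the RNA of 1 mouse. The cause was not tested.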

How the results depend on the processing

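Pprc1 and Ppargc1b passed in all 26 alternatives (log2 fold change 1.15 to 2.31 and 1.11 to 2.20), and Polg in 25 (0.80 to 1.91), the exception being the fit without control library 2B. Against 3 members, 5 passed under DESeq2 and 7 with TPM at either pseudocount, all higher, and 4 with the replicate block. Leaving out a mouse gave 3 to 4 members. TPM moved the median of all genes to 0.19 (pseudocount 1) or 0.35 (pseudocount 0.1) and the share of higher calls from 45.6% to 68.7% or 69.0%. Values of members that did not pass turned sign as follows. Nrf1 was at -0.02 with 1 library per mouse, at -0.01 with transcript length offsets and between -0.02 and 0.25 without a mouse. Tfb1m was at 0.01 with limma-voom, 0.19 with the length trend and 0.26 with the length and GC trends removed, 0.28 and 0.35 with TPM, 0.20 without control library 1A and between -0.44 and 0.39 without a mouse. Tfb2m was at 0.08 and 0.24 with those trends removed, 0.09 with TPM, 0.02 without control library 2A and between -0.31 and 0.01 without a mouse.

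Among the lists, removal of the length trend gave 3 calls against 10 for mtDNA replication (4 with GC content as well), 2 against 5 for nucleotide supply (also 2 with GC content), 7 against 16 for transcription and RNA processing (9 with GC content), 12 against 23 for coactivator partners (13 with GC content) and 13 against 22 for nuclear targets. Transcription and RNA processing also gave 7 with 1 library per mouse, 6 with the replicate block, 6 without control library 2B and 8 to 20 without a mouse. Coactivator partners gave 15 with separate libraries, 14 with 1 library per mouse and 9 without control library 2B. Of the member transcripts, 5 passed, 0 with the replicate block, where 9 had an unadjusted p under 0.05 in edgeR, 15 under DESeq2 and 2 to 7 without a mouse. The summed TPM of the members was 329 in VA-free 2A alone and 170, 184, 152 and 191 in control 1A, 1B, 2A and 2B alone. Mice that share a replicate number are different animals, and their deviations correlated at -0.0654 and 0.0103 over genes. With 2 control mice both values rest on 1 control difference, so they cannot show whether the number marks a shared day or batch. Causes of these changes were not tested. Tfb1m, Esrra and Ppargc1a rest on the fewest counts, and differences within their intervals were not detectable.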
